A study of Mus musculus with 9 samples.

Results

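Naive splenic B cells of Mct1f/fMb1Cre mice were compared with those of Mb1Cre control mice by RNA sequencing before any stimulation (day 0). The comparison used 4 of the 9 libraries of the series, 2 of each genotype, and every gene whose mean over these 4 libraries reached 1 FPKM, which gave 11001 of the 17596 genes listed. FPKM is the number of fragments scaled to gene length and to all mapped fragments. Both genotypes carry Mb1Cre, a Cre recombinase driven by the B-lineage gene Mb1 (Cd79a), and the Mct1f/fMb1Cre mice carry in addition 2 floxed copies of Mct1 (Slc16a1), made with CRISPR-Cas9 on the C57BL/6J background with loxP sites at exon 1 and intron 3. The Mct1f/fMb1Cre mice were used at 6 to 8 weeks of age. The cells were primary spleen cells without treatment, and the sources used here do not say whether a library came from 1 mouse or a pool, nor whether the replicates were separate mice, so p-values measure only the spread between these samples. The other 5 libraries, 2 of Mb1Cre and 3 of Mct1f/fMb1Cre cells, had been activated with 10 μg/mL of LPS together with 50 ng/mL of IL-4 for 3 days. They served as a second measurement of the genotype difference, and their spread also entered the day 0 test.

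Slc16a1 encodes MCT1, a plasma membrane carrier that moves lactate, pyruvate and ketone bodies together with protons, and it reaches the cell surface with the chaperone basigin. Naive B cells are small, quiescent cells that recirculate through lymphoid organs and have a low metabolic demand until antigen or a mitogen activates them. Activation first induces immediate-early genes such as those of the FOS and JUN families, and then growth, glycolysis and antibody class switching.

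In naive B cells the genotypes differed in few genes. A gene was called where its adjusted p was below 0.05 and its log2 fold change was larger than 0.5 in size. On this rule 25 genes were higher in Mct1f/fMb1Cre cells (0.227% of those tested) and 4 were lower (0.0364%). The median log2 fold change over all genes tested was -0.00, the median size was 0.0651, and the whole 95% confidence interval lay within 0.5 of zero for 10270 genes (93.4%). At an unadjusted p under 0.05, 742 genes (6.74%) were higher and 568 (5.16%) were lower. The 2 values of one genotype lay wholly above those of the other in 18.8% of genes for Mct1f/fMb1Cre and in 19.6% for Mb1Cre, so a lack of overlap alone was common. The test borrowed its spread from all 9 libraries. With the 4 day 0 libraries alone, 0 genes were called higher and 2 lower (Srp54b and Rps27rt), with 875 genes at an unadjusted p under 0.05. Leaving out Mb1Cre replicate 2 gave 62 genes higher and 61 lower, and leaving out Mct1f/fMb1Cre replicate 2 gave 61 and 11, while without replicate 1 of either genotype the counts were 21 and 5 (Mb1Cre) and 24 and 5 (Mct1f/fMb1Cre). The plot of the difference against the level shows the called genes.

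**Figure D1:**
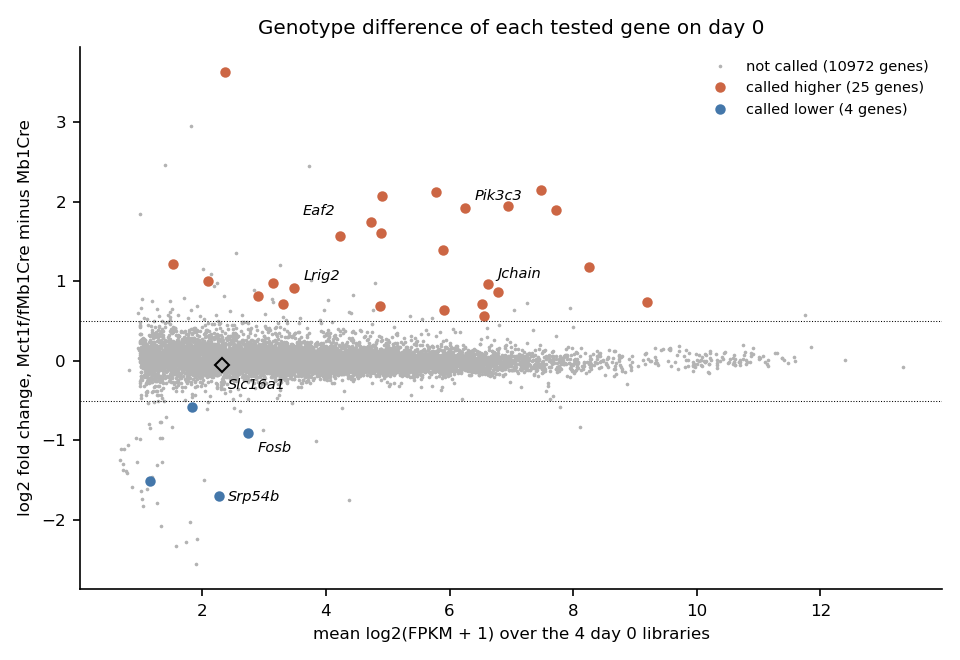
Log2 fold change between the genotypes on day 0 (vertical axis, Mct1f/fMb1Cre minus Mb1Cre) against the mean log2(FPKM + 1) of the 4 day 0 libraries (horizontal axis), 1 point per tested gene. The 25 genes called higher and the 4 called lower are marked, and Slc16a1 (diamond) lies near zero. Some genes that were not called lie as far from zero as called ones, such as Eif2s3y (2.95) and Ctsk (-2.56). Dotted lines mark the limit of 0.5.

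The 4 libraries held B cell RNA, with some from other cells. Cd79a lay between 1573 and 1714 FPKM, while the 12 neutrophil markers summed to 517 and 726 FPKM in the Mb1Cre libraries against 1606 and 574 in the Mct1f/fMb1Cre libraries. Mct1f/fMb1Cre replicate 1 therefore stood apart in neutrophil genes. It was also the only day 0 library with Y-linked transcripts. Eif2s3y was at 59.6 FPKM there and at most 0.58 in the other 3, whereas all 5 day 3 libraries had at least 44.6. Mb1Cre replicate 1 stood apart in genes of bone and connective tissue, such as Col1a1 (28.8 FPKM against at most 1.25) and Ctsk (39.1 against at most 1.03). Many results that rest on either library are given with and without it. The erythroid and plasma cell sums are not, nor are the genes that passed the adjusted p but not the limit.

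The targeted gene showed no detectable decrease in naive Mct1f/fMb1Cre cells. Slc16a1 was at 4.33 and 3.80 FPKM in the Mb1Cre libraries and at 3.71 and 4.06 in the Mct1f/fMb1Cre libraries. The groups overlapped, with a log2 fold change of -0.05 (95% confidence interval -0.22 to 0.12, adjusted p = 0.841). The exact two-sided permutation test gave p = 0.667, where 2 libraries against 2 cannot give less than 0.333. On day 3, by contrast, Slc16a1 was at 22.6 and 23.0 FPKM in Mb1Cre cells and at 10.8, 9.81 and 9.50 in Mct1f/fMb1Cre cells, a log2 fold change of -1.11 (adjusted p = 0.000515). The difference between the days was -1.06 (adjusted p = 0.000676). A gene-level FPKM does not separate exons. In the GENCODE annotation of GRCm38 the transcript Slc16a1-201 (chromosome 3, 104638668 to 104658462, plus strand) has 5 exons and 4426 bases, of which exons 1 to 3 hold 565 bases (12.8%) and exon 5, mostly beyond the coding part, 3015. The study's exon numbering was not tied to this annotation, and the reads of each exon were not analysed here, so the day 0 values do not check the genotype label. Without Mb1Cre replicate 1 the log2 fold change was 0.02, and without Mct1f/fMb1Cre replicate 1 it was 0.00.

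**Figure D2:**
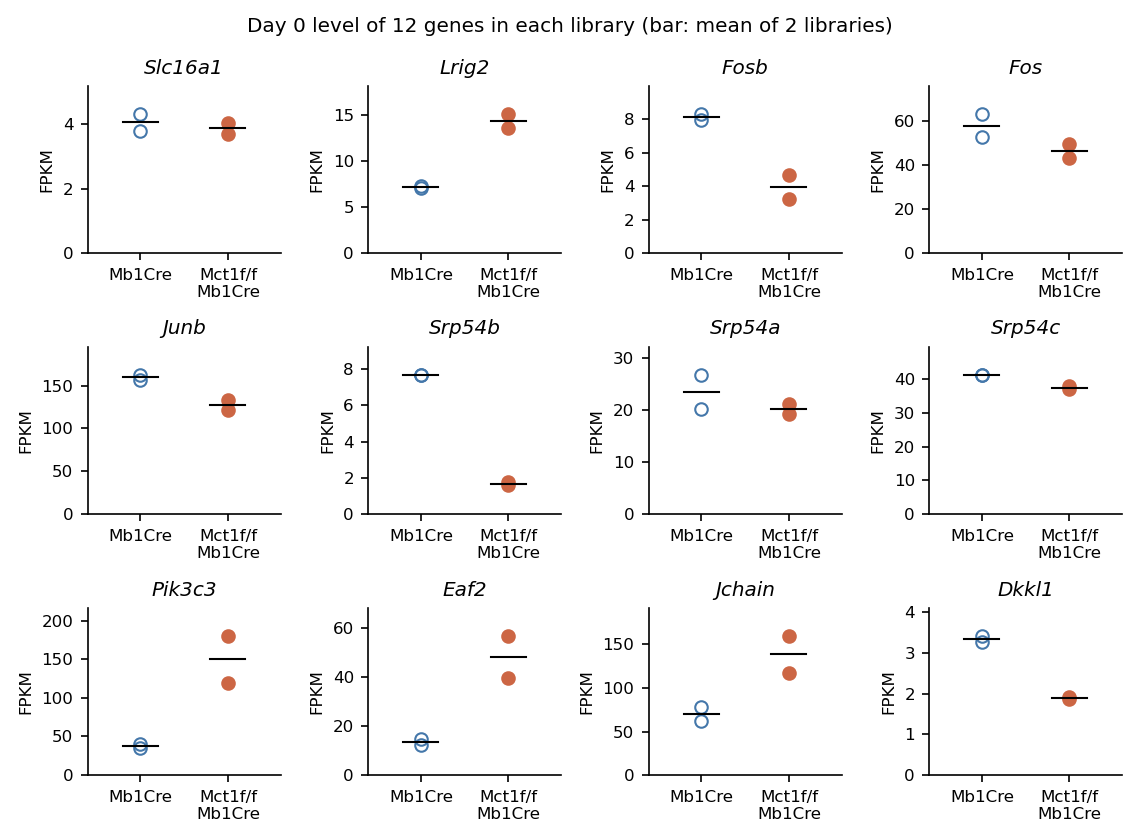
FPKM of 12 genes in the 4 day 0 libraries, with 1 point per library and a bar at the mean of each genotype; every vertical axis starts at 0. Slc16a1 overlaps between the genotypes, Lrig2, Pik3c3, Eaf2 and Jchain lie higher in Mct1f/fMb1Cre, and Fosb, Srp54b and Dkkl1 lie lower.

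Lrig2, which encodes a transmembrane protein with leucine-rich repeats and immunoglobulin-like domains, was higher in Mct1f/fMb1Cre cells on both days. On day 0 it was at 7.28 and 7.02 FPKM in Mb1Cre and at 15.1 and 13.6 in Mct1f/fMb1Cre. The groups were far apart relative to their replicates, with a log2 fold change of 0.91 (SE 0.0862, 95% confidence interval 0.72 to 1.10, adjusted p = 0.000971) and a mean of 201% of control. On day 3 the level was lower in both genotypes, at 2.72 and 3.01 against 5.54, 5.08 and 6.09 FPKM, and the difference was 0.76 (adjusted p = 0.00383). The 2 differences did not separate in the test between days (adjusted p = 0.473). Lrig2 (chromosome 3, 104453980 to 104511918, minus strand) lies 127 kb from Slc16a1 on the side of the Slc16a1 start, and none of the genes annotated by RefSeq between them was measured. Of the other members of its family, Lrig1 and Lrig3, neither reached a mean of 1 FPKM.

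The other neighbours of the floxed locus did not pass the test. Within 1 Mb of Slc16a1 14 genes were tested, and Lrig2 was the 1 called. Apart from Slc16a1, the other 12 had log2 fold changes from -0.22 (Rhoc) to 0.36 (Ptpn22), with the lowest adjusted p at 0.271. Ptpn22, a phosphatase that dampens antigen receptor signalling, was at 55.2 and 70.6 FPKM in Mb1Cre and at 88.0 and 73.6 in Mct1f/fMb1Cre, without overlap. Capza1, Mov10, St7l and Rhoc, the nearest measured genes on the far side of Slc16a1, had differences of -0.06, -0.05, -0.05 and -0.22.

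Fosb, a partner of JUN proteins in the AP-1 transcription factor, was the called gene of the immediate-early response. It was at 8.33 and 7.98 FPKM in Mb1Cre and at 3.24 and 4.65 in Mct1f/fMb1Cre, which is 48.4% of control. The genotypes did not overlap, and the log2 fold change was -0.90 (SE 0.123, 95% confidence interval -1.18 to -0.63, adjusted p = 0.0138). Without Mb1Cre replicate 1 the change was -0.88 and its adjusted p was 0.0581, so that the call was lost. It was also lost at a pseudocount of 0.1 (adjusted p = 0.158), without the filter on low values (0.0717), with the replicate block (0.0525) and with the 4 day 0 libraries alone (0.295). On day 3 Fosb was at or below 0.04 FPKM in all 5 libraries, and no genotype difference could be read there.

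Other members of the family lay lower without passing the test. Junb was at 157 and 162 FPKM in Mb1Cre and at 121 and 133 in Mct1f/fMb1Cre, a log2 fold change of -0.33 (adjusted p = 0.0508). On day 3 it was again lower, by -0.32 (adjusted p = 0.0110). Fos was at 52.7 and 63.3 against 49.4 and 43.1 FPKM, with a log2 fold change of -0.32 and an adjusted p of 0.274. Jund, with 196 and 236 against 157 and 191 FPKM, had a log2 fold change of -0.31 (adjusted p = 0.296). These 3 genes did not overlap between the genotypes, whereas Jun (-0.09) and Fosl2 (-0.31) overlapped. Atf3 (0.12) and Maff (-0.09), which were listed with the family, overlapped as well.

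The start regions of these genes are shown because Fosb, Fos and Junb share a letter string known from genes that respond to signals. The 250 bases before the start given for each gene in the RefSeq promoter table (GRCm38.p6, 5′ to 3′ on the gene's strand) were taken for Fosb at chr7:19310046-19310295 (minus strand), Fos at chr12:85473640-85473889 (plus strand) and Junb at chr8:84978749-84978998 (minus strand), with capitals at TGACG, the core of the element that CREB family factors bind.
Fosb: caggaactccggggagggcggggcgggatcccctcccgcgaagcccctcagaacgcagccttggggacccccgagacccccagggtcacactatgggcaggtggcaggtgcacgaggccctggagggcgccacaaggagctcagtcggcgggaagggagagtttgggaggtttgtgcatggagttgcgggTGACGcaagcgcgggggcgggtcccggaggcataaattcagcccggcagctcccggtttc
Fos: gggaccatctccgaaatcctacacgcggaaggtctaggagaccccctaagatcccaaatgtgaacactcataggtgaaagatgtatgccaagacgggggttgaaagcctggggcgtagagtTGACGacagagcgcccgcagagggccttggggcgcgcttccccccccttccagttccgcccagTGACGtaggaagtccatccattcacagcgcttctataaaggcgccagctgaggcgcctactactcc
Junb: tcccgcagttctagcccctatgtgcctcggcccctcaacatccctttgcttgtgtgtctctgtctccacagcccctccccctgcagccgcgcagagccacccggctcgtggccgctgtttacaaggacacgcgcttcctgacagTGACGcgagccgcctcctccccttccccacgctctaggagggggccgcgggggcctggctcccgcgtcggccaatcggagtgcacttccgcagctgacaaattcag
TGACG, searched on both strands, begins 60 bases before that start in Fosb, 129 and 66 bases before it in Fos and 106 bases before it in Junb. RefSeq also extends the Fosb gene to position 19310118, so that the last part of its window, with the match, lies inside the gene as annotated. The same string occurs in 17.8% of 32851 promoter windows of this length. Whether it occurs in the windows of Jund and the other family members is not given here. The full palindrome TGACGTCA (1.55% of windows) and the AP-1 string TGANTCA (6.75%) are in none of the 3. A match is a description of the letters and not a bound site.

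Over the whole list of immediate-early genes, 36 of 39 were tested. None was called higher and 1 was called lower (Fosb), and 12 were lower and 0 higher at an unadjusted p under 0.05, against 5.16% and 6.74% of all genes tested. The median log2 fold change was -0.14 beside -0.00 for all genes, 29 members had a negative difference and 7 a positive one. In 16 members the Mct1f/fMb1Cre values lay wholly below the Mb1Cre values, where 19.6% of all genes did. By role, the FOS and JUN genes, grouped with Atf3 and Maff, had the lowest median (-0.31 over 8 tested). Feedback inhibitors followed (-0.18 over 14), while EGR and NR4A genes were near zero (-0.01 over 5). The FOS and JUN median was -0.18 without Mb1Cre replicate 2, -0.21 without Mct1f/fMb1Cre replicate 2, -0.22 without Mct1f/fMb1Cre replicate 1 and -0.27 without Mb1Cre replicate 1. Among the inhibitors, the phosphatase gene Dusp2 was at 126 and 150 against 119 and 110 FPKM (log2 fold change -0.27), and Zfp36l1, which targets mRNAs for decay, at 391 and 385 against 330 and 354 (-0.18). Egr1 was at 42.4 and 41.5 against 35.9 and 38.1 FPKM (-0.18). The list median lay between -0.18 and -0.09 when each library was left out in turn, and with replicate 2 of each genotype alone it was -0.17.

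Srp54b had the largest decrease of the called genes on the log2(FPKM + 1) scale, although LOC115490200 was at a lower share of control (11.6% against 21.8%). It is 1 of 3 mouse genes for SRP54, the GTPase subunit of the signal recognition particle, which carries ribosomes with nascent secreted proteins to the endoplasmic reticulum. Srp54b was at 7.68 and 7.67 FPKM in Mb1Cre and at 1.58 and 1.77 in Mct1f/fMb1Cre, which is 21.8% of control and a log2 fold change of -1.70 (SE 0.157, adjusted p = 0.000971). On day 3 it was at 5.39 and 7.25 against 7.96, 11.0 and 7.53 FPKM, a difference of 0.42 in the other direction that did not pass the test (adjusted p = 0.174). The effects of the 2 days differed by 2.12 (adjusted p = 0.000676). The paralogs Srp54a (20.2 and 26.8 against 19.3 and 21.2 FPKM) and Srp54c (41.4 and 41.3 against 38.0 and 37.2) were not called, with log2 fold changes of -0.19 and -0.13. The 5 other subunits of the particle that were tested lay between 0.02 and 0.11.

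The value of Srp54b is uncertain because the genes share sequence. Of the 31-base words of its GENCODE transcripts 89.9% also occur in another gene, mostly Srp54a and Srp54c. The coding sequences (1512 bases) of Srp54a and Srp54b differ at 0 positions, and each differs from Srp54c at 6. Coding bases 922 to 981 hold 3 of these 6, in capitals, and are shown to make clear how little separates the paralogs.
Srp54a: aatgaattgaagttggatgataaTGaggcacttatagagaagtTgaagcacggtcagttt
Srp54b: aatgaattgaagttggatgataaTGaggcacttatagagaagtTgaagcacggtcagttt
Srp54c: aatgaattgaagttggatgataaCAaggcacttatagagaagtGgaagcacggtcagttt
How the authors' counting divided such reads is not given in the sources used here. Rps27rt, the second gene called lower from the 4 day 0 libraries alone, is of the same kind, with 92.7% of its 31-base words shared, mostly with Rps27. It was at 354 and 384 against 211 and 203 FPKM (log2 fold change -0.83, adjusted p = 0.0353 in the 4 libraries and 0.131 with all 9).

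The 2 other genes called lower were weakly expressed. Dkkl1, known from sperm, was at 3.27 and 3.42 against 1.92 and 1.88 FPKM, a log2 fold change of -0.58 (adjusted p = 0.0138). Without Mct1f/fMb1Cre replicate 1 its adjusted p was 0.0519, and on day 3 its difference was 0.28 (adjusted p = 0.0599). LOC115490200, a predicted gene of chromosome 5, was at 3.06 and 2.48 against 0.35 and 0.29 FPKM (-1.51, adjusted p = 0.000395). It passed the filter of 1 FPKM only through the Mb1Cre libraries (mean 2.77 against 0.32 FPKM). It was lower again on day 3, by -0.79 (adjusted p = 0.00182).

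Among the genes called higher, Pik3c3 and Eaf2 had the largest increases of those with an established name. Pik3c3 encodes the class III phosphatidylinositol 3-kinase of endosomal traffic and autophagy. It was at 35.4 and 40.9 FPKM in Mb1Cre and at 181 and 120 in Mct1f/fMb1Cre, 394% of control, with a log2 fold change of 1.93 (SE 0.142, adjusted p = 0.000395). Eaf2, an elongation factor partner known in germinal centre B cells, was at 12.5 and 14.6 against 56.8 and 39.5 FPKM, a log2 fold change of 1.74 (SE 0.134, adjusted p = 0.000395). In both genes the Mct1f/fMb1Cre libraries lay far above the controls and differed among themselves, with replicate 1 the higher. Both were higher on day 3 as well, Pik3c3 by 1.30 and Eaf2 by 0.96. The day 0 excess of Eaf2 was the larger of its 2 (difference -0.78, adjusted p = 0.0279), which was not shown for Pik3c3 (adjusted p = 0.0766).

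Predicted genes made up most of the increases. Of the 25 genes called higher 15 have Gm or LOC names, as do 1.95% of the genes tested. Gm40453 had the largest fitted increase (0 and 1.16 FPKM against 24.7 and 12.0, log2 fold change 3.64, adjusted p = 0.000971), with 1 control library listed at 0. Gm40453 and Gm40595 passed the filter of 1 FPKM only through the Mct1f/fMb1Cre libraries, since their Mb1Cre means were 0.58 and 0.885 FPKM. Next came Gm39972, at 81.6 and 85.1 against 594 and 235 FPKM (log2 fold change 2.15, adjusted p = 0.0138). Its 2 Mct1f/fMb1Cre values differed by more than the lower of them, and without Mb1Cre replicate 1 its adjusted p was 0.0657. Gm52197 (2.12), Gm41844 (2.08), Gm42102 (1.95), LOC115488029 (1.89), Gm42267 (1.61) and Gm40525 (1.57) complete the 10 largest increases with Pik3c3 and Eaf2. Without Mb1Cre replicate 1 Gm42267 and Gm40525 lost the call (adjusted p = 0.0809 and 0.119), as Gm40525 did without Mb1Cre replicate 2 (0.0592). The other 7 were Gm52787 (1.39), Gm40595 (1.22), Gm43305 (1.18), Gm51753 (0.98), Gm52768 (0.87), Gm46156 (0.72) and Gm46911 (0.69). Of these, Gm40595, Gm43305, Gm51753 and Gm46911 lost the call without Mb1Cre replicate 1 (adjusted p = 0.0531, 0.0717, 0.141 and 0.0657), Gm40595 and Gm46911 without Mct1f/fMb1Cre replicate 1 (0.0533 and 0.0519) and Gm46911 without Mb1Cre replicate 2 (0.0612). In 22 of the 25 genes called higher, Mct1f/fMb1Cre replicate 1 was above replicate 2. The genes were spread over many chromosomes, and 7 of the 29 called genes had no entry in the RefSeq table used here.

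The remaining genes called higher had smaller increases. Tmem181a, a membrane protein gene, was at 6.78 and 6.65 against 10.4 and 13.1 FPKM (log2 fold change 0.72, adjusted p = 0.00722). It shares 34.3% of its 31-base words with other genes, mostly Tmem181b-ps. Dynlt1c, for a dynein light chain, was at 73.8 and 80.1 against 103 and 125 FPKM (0.56, adjusted p = 0.0410). Cnbd2, with a cyclic nucleotide-binding domain, was at 389 and 523 against 853 and 667 FPKM (0.74, adjusted p = 0.0471). Pcp4, a calmodulin-binding peptide gene, was at 5.03 and 4.32 against 8.69 and 9.22 (0.81, adjusted p = 0.0331). The last 3 calls are weak. Dynlt1c shares 86.5% of its 31-base words with other genes and had an adjusted p of 0.151 without Mb1Cre replicate 1 and 0.0937 without Mct1f/fMb1Cre replicate 2. Cnbd2 had 0.119 without Mb1Cre replicate 1 and 0.191 without Mct1f/fMb1Cre replicate 1, and Pcp4 between 0.0581 and 0.0905 whichever library was left out.

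Jchain, Hba-a1 and Prg2 are best known from plasma cells, red cells and eosinophils. Jchain, whose product joins IgM and IgA into polymers, was at 62.3 and 77.9 FPKM in Mb1Cre and at 160 and 117 in Mct1f/fMb1Cre, 198% of control (log2 fold change 0.97, adjusted p = 0.0247). The alpha-globin gene Hba-a1 was at 49.5 and 44.8 against 82.2 and 66.4 FPKM (0.64, adjusted p = 0.0335). It shares 75.5% of its 31-base words, mostly with Hba-a2, which overlapped between the genotypes (37.9 and 29.2 against 57.7 and 22.1), so its value is uncertain. Prg2, the major basic protein of eosinophils, was at 1.89 and 2.14 against 5.05 and 5.03 (1.00, adjusted p = 0.0211). All 3 were without overlap and all 3 lost the call without Mct1f/fMb1Cre replicate 1, with adjusted p of 0.0796 for Jchain and Prg2 and 0.156 for Hba-a1. They also lost it without Mb1Cre replicate 1 (0.0962, 0.0809 and 0.0691, in the order Jchain, Prg2, Hba-a1), Hba-a1 without Mb1Cre replicate 2 (0.0755), and Prg2 without Mct1f/fMb1Cre replicate 2 (0.0513). In bulk RNA a change in the number of cells of a type and a change in RNA per cell cannot be told apart.

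Markers of other cells differed between libraries. Of 72 markers 64 were tested, with 2 called higher (Jchain and Hba-a1) and 0 lower, where 0.227% and 0.0364% of all genes were. The median was 0.14. All 12 neutrophil markers were highest in Mct1f/fMb1Cre replicate 1, for example S100a9 at 166 and 232 FPKM in Mb1Cre against 514 and 187. Their median of 0.58 was -0.13 without that library, and the median of the whole list was then -0.03. The 9 erythroid markers summed to 152 and 131 against 238 and 153 FPKM, and the 13 monocyte and macrophage markers to 1464 and 1615 against 1847 and 1636. All 13 of the latter had a positive difference, 8 of them without overlap, where 18.8% of all genes were higher without overlap. At an unadjusted p under 0.05, 5 were higher and 0 lower, against 6.74% and 5.16% of all genes. Their median of 0.24 lay between 0.14 and 0.29 as each library was left out, and none was called. The 5 plasma cell markers summed to 135 and 151 against 235 and 192 FPKM. This sum was carried by Jchain, since Sdc1 (8.29 and 6.25 against 5.75 and 6.56) and Prdm1 overlapped between the genotypes and Xbp1 was at 61.5 and 64.4 against 66.2 and 65.6. The 8 T cell markers summed to 64.1 and 64.0 against 57.8 and 56.3 FPKM. Of these markers 4 were lower at an unadjusted p under 0.05, where 5.16% of all genes were. Cd3e was among them (2.93 and 2.90 against 1.81 and 1.76, log2 fold change -0.49, adjusted p = 0.0726). No marker on the list was at 0 in all 4 libraries. The part of other cells in the called genes was not tested.

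**Figure D3:**
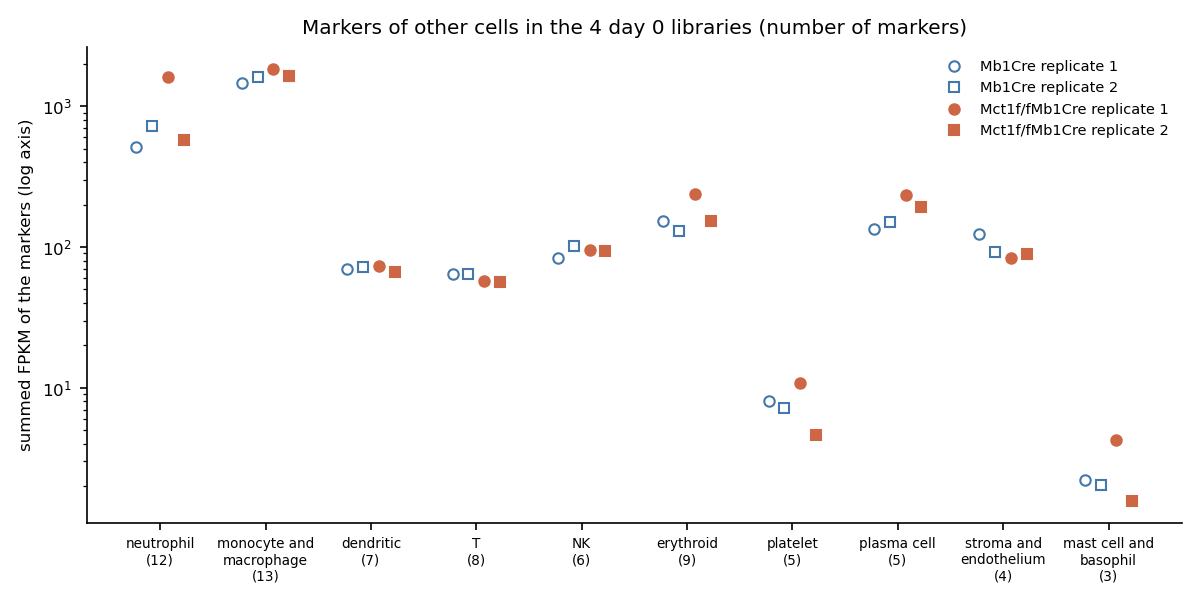
Summed FPKM of the markers of each cell type (log axis) in the 4 day 0 libraries, open symbols for Mb1Cre and filled symbols for Mct1f/fMb1Cre, with the number of markers in brackets. Mct1f/fMb1Cre replicate 1 has the highest neutrophil sum (1606), and the T cell sums of both Mct1f/fMb1Cre libraries (57.8 and 56.3) lie below those of Mb1Cre (64.1 and 64.0).

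Most of the increases were present again in the day 3 libraries. The day 0 calls took their spread from all 9 libraries, so the day 3 libraries had a part in choosing these genes. The share below is therefore not an independent check. Of the 25 genes called higher on day 0, 19 were higher on day 3 at an adjusted p under 0.05 in a fit of the 5 day 3 libraries alone, against 5.26% of all genes tested. Among them were Lrig2, Pik3c3, Eaf2, Tmem181a (0.74), Dynlt1c (0.32) and Cnbd2 (0.50). Jchain (-0.47) and Gm43305 (-0.16) were lower on day 3. Hba-a1 also passed as lower, but it was at 0.3 FPKM or less in all 5 libraries, where no difference can be read. In Gm40525, Prg2 and Pcp4 the day 3 difference did not pass the test. Of the 4 genes called lower, 1 was lower on day 3 (LOC115490200), against 7.87% of all genes. The genotype effect differed between the days in 13 of the 29 called genes, and in 922 (8.38%) of all genes tested. Fosb and Hba-a1 are 2 of these 13, and since both were at 0.3 FPKM or less on day 3, the test restates their day 0 difference. The day 3 libraries came from activated cells.

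**Figure D4:**
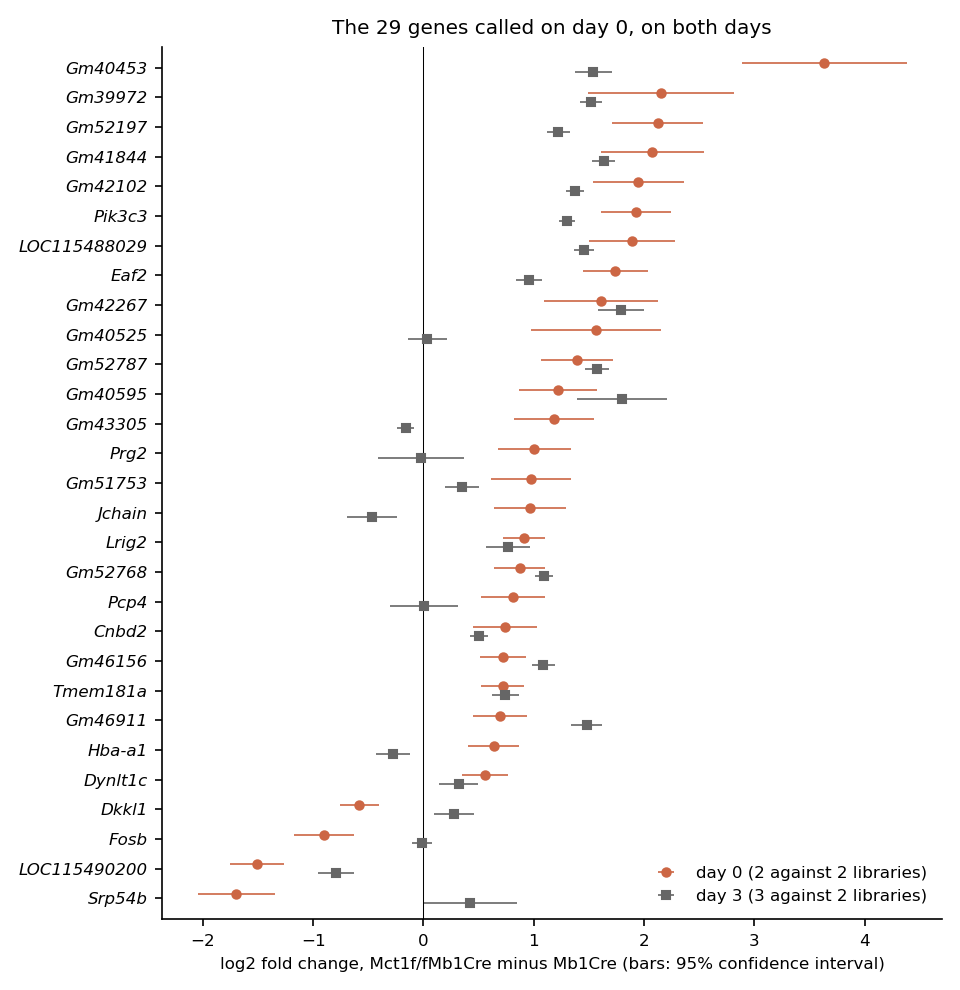
Log2 fold change (horizontal axis, Mct1f/fMb1Cre minus Mb1Cre) of the 29 genes called on day 0, on day 0 (circles, 2 against 2 libraries) and on day 3 (squares, 3 against 2), with 95% confidence intervals. Lrig2, Pik3c3, Eaf2 and 16 others are higher on both days, and among these the size differs between the days in Eaf2, Gm40453 and Gm46911. The effects of Srp54b, Dkkl1, Jchain and Prg2 also differ between the days. Fosb is near 0 FPKM on day 3.

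Carriers and enzymes of monocarboxylate metabolism were close between the genotypes. Of 12 tested genes none was called, and the median log2 fold change was -0.03. An unadjusted p under 0.05 was reached by 1 higher and 0 lower genes, against 6.74% and 5.16% of all genes. Slc16a6 had the highest level of the plasma membrane carriers tested, at 27.3 and 24.9 against 23.1 and 27.6 FPKM, well above Slc16a1. Slc16a3, the lactate exporter MCT4, was at 3.62 and 4.87 against 4.95 and 4.31. The chaperone gene Bsg was at 98.0 and 94.5 against 87.0 and 90.2 FPKM (-0.12), and Emb, which encodes the related chaperone embigin, at 14.7 and 16.3 against 21.5 and 16.5 (0.27, adjusted p = 0.345). Both lacked overlap and neither passed the test. Ldha was at 158 and 154 against 144 and 151 FPKM (-0.08).

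Glycolysis, pyruvate oxidation and respiration showed no called gene. In the glycolysis list (18 tested) the median was -0.01 and the range from -0.13 to 0.13. An unadjusted p under 0.05 was reached by 0 higher and 3 lower genes, against 6.74% and 5.16% of all genes. In 6 members the Mct1f/fMb1Cre values lay wholly below the Mb1Cre values and in 0 wholly above, against 19.6% and 18.8% of all genes. Positive differences numbered 8 and negative ones 10. The glucose transporter Slc2a1 had the lowest value there, at 23.6 and 24.1 against 21.6 and 21.8 FPKM. The 29 tested genes of pyruvate oxidation and the TCA cycle had a median of -0.00. Of these, 0 were higher and 3 lower at an unadjusted p under 0.05, beside the same shares of all genes. Without overlap, 3 lay higher and 9 lower. Pdk2, a kinase that inhibits pyruvate dehydrogenase, was at 7.34 and 7.07 against 5.95 and 5.68 FPKM (-0.27, adjusted p = 0.338). Sdhb was at 69.6 and 66.0 against 56.9 and 62.6 (-0.18, adjusted p = 0.245). The 84 tested genes listed as OXPHOS subunits, chosen by the start of their symbols alone, had a median of 0.01 and a range from -0.87 to 0.46. Of these, 80 had their confidence interval within 0.5 of zero. The lowest, Ndufb4c, was at 9.55 and 9.87 against 1.68 and 11.8 FPKM. The 8 genes of mitochondrial fusion and fission had a median of -0.04. In glycolysis, the TCA list and fusion and fission, every tested gene had its whole 95% confidence interval within 0.5 of zero.

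The differences of histone acetylation genes were small and mostly negative. None of 30 was called, and the median was -0.04. An unadjusted p under 0.05 was reached by 0 higher and 3 lower genes, against 6.74% and 5.16% of all genes. In 12 members the Mct1f/fMb1Cre values lay wholly below the Mb1Cre values and in 2 wholly above, against 19.6% and 18.8% of all genes. Negative differences numbered 24 and positive ones 6. The lowest was Hdac7, a class IIa deacetylase, at 49.6 and 48.7 against 42.2 and 43.1 FPKM (log2 fold change -0.20, adjusted p = 0.131), and it was lower on day 3 too (-0.33, adjusted p = 0.00526). The acetyltransferase gene Crebbp was at 18.2 and 18.5 against 17.2 and 15.9 FPKM, and Ep300 at 42.3 and 39.9 against 39.9 and 38.8. The confidence intervals of all 30 lay within 0.5 of zero.

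B cell identity genes were at like levels, most of them slightly lower in Mct1f/fMb1Cre cells. All 25 tested members had their confidence interval within 0.5 of zero, with 0 called and a median of -0.03. An unadjusted p under 0.05 was reached by 1 higher and 4 lower genes, against 6.74% and 5.16% of all genes. In 10 members the Mct1f/fMb1Cre values lay wholly below the Mb1Cre values and in 2 wholly above, against 19.6% and 18.8% of all genes. Negative differences numbered 20 and positive ones 5. Ms4a1 (CD20) was at 481 and 468 against 456 and 507 FPKM. Cd79b was at 1172 and 1299 against 1059 and 1163 (-0.15, adjusted p = 0.379), Pax5 at 167 and 159 against 150 and 151 (-0.12), and the kinase gene Lyn at 188 and 198 against 210 and 208 (0.12). Subset markers (15 tested) had a median of -0.01. The follicular marker Fcer2a was at 438 and 402 against 391 and 390 FPKM, and the marginal zone marker Cd1d1 at 28.5 and 28.7 against 31.9 and 32.3. Zbtb32, a repressor known from B1 and memory cells, passed the adjusted p (0.0249) but not the limit, at 2.33 and 2.89 against 4.18 and 3.87 (0.48).

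Genes of homing and quiescence lay lower without a call. None of 14 was called, where 0.227% of all genes were called higher and 0.0364% lower. At an unadjusted p under 0.05, 6 were lower and 0 higher, against 5.16% and 6.74% of all genes tested. The median was -0.11. Klf2, a transcription factor that keeps lymphocytes quiescent, was at 468 and 579 FPKM in Mb1Cre and at 423 and 425 in Mct1f/fMb1Cre (-0.30, adjusted p = 0.215). On day 3 it was higher in Mct1f/fMb1Cre cells, by 0.87 (adjusted p = 0.000242). Ccr7, the receptor that leads B cells to T zones, was at 108 and 118 against 95.0 and 101 FPKM (-0.20, adjusted p = 0.261) and was lower on day 3 (-0.98). Tsc22d3 (209 and 269 against 231 and 131) and Cxcr4 (181 and 253 against 222 and 123) had larger fitted differences, -0.45 and -0.37, but overlapped between the genotypes. Mct1f/fMb1Cre replicate 2 held the lowest value of both. The list median lay between -0.13 and -0.07 as each library was left out.

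Interferon-stimulated genes lay higher in Mct1f/fMb1Cre cells, without a call. Of 20 tested 11 were higher and 0 lower at an unadjusted p under 0.05, against 6.74% of all genes higher, and the median was 0.23. The monocyte and macrophage markers also lay higher, with a positive difference in 13 of 13, none called and a median of 0.24. Of these markers 5 were higher and 0 lower at an unadjusted p under 0.05. Without Mct1f/fMb1Cre replicate 1 the interferon median was 0.38 and the monocyte and macrophage median 0.22. Without Mct1f/fMb1Cre replicate 2 they were 0.08 and 0.29. The part of these markers in the interferon values was not tested. In the interferon list the lowest adjusted p was 0.147, and 9 members did not overlap, against 18.8% of all genes. Rsad2 was at 2.83 and 4.64 against 5.05 and 5.26 FPKM (0.41), Ifit1 at 2.47 and 3.78 against 4.16 and 4.58 (0.40) and Ifit3 at 13.8 and 16.0 against 16.5 and 24.1 (0.40). In these 3 genes, as in Oas2 and Irf7, Mb1Cre replicate 1 had the lowest value. Without Mb1Cre replicate 1 the list median was 0.12, with 3 genes higher and 1 lower at an unadjusted p under 0.05, and without Mct1f/fMb1Cre replicate 2 it was 0.08, with 4 and 1. On day 3 Ifit1 (-0.44), Rsad2 (-0.58) and Ifih1 (-0.41) were lower in Mct1f/fMb1Cre cells, and Oas2 was higher (0.26, adjusted p = 0.0461).

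Class switch genes were close between the genotypes. Of 26 tested, none was called, and the median was 0.03. An unadjusted p under 0.05 was reached by 1 higher and 1 lower gene, against 6.74% and 5.16% of all genes. Apex1, an endonuclease of base excision repair, was at 35.8 and 36.9 against 38.4 and 44.0 FPKM (0.17, adjusted p = 0.296). The heat shock list (9 tested) had 3 genes higher and 0 lower at an unadjusted p under 0.05, against 6.74% and 5.16% of all genes. None was called, and the median was 0.06. This median was 0.01 without Mb1Cre replicate 2 and 0.12 without Mb1Cre replicate 1. Hspe1 was at 105 and 102 against 108 and 121 FPKM.

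**Figure D5:**
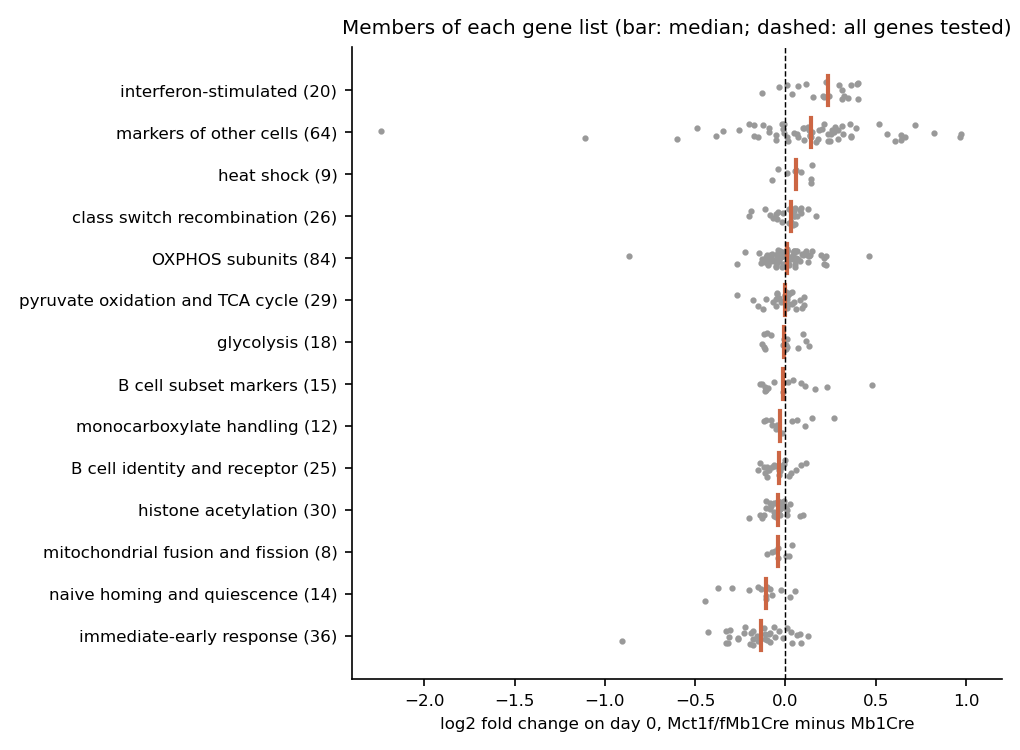
Log2 fold change on day 0 (horizontal axis, Mct1f/fMb1Cre minus Mb1Cre) of the tested members of 14 gene lists (1 point per gene, number tested in brackets), with a bar at the list median and a dashed line at the median of all genes tested. The interferon-stimulated list has the highest median (0.23) and the immediate-early list the lowest (-0.14), and the metabolic lists lie close to the dashed line.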

How the data were processed

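RNA of primary spleen B cells was sequenced in 9 libraries (2 Mb1Cre and 2 Mct1f/fMb1Cre on day 0, 2 and 3 on day 3), and the labels gave groups and replicate numbers. The authors deposited 1 table of FPKM values with 17596 genes. Per the labels the RNA was extracted with TRNzol (the paper's methods name another kit), and the data were assembled by the sequencing institute; the submitters' processing notes name Bowtie2 and GRCm38/mm10, and the counting tool is not given in the sources used here. FPKM carry no counts, so the depth is unknown, no counting interval was given, and precision rests on the number of libraries. Sums of FPKM lay between 477079 and 491460 in the day 0 libraries.

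Values were analysed as log2(FPKM + 1), which understates the change of low genes, over genes whose mean in the 4 day 0 libraries reached 1 FPKM. limma 3.58.1 in R 4.3.3 fitted 1 mean per group over all 9 libraries, with a variance trend and Benjamini-Hochberg adjustment, and a call needed an adjusted p below 0.05 with a log2 fold change larger than 0.5 in size. Every adjusted p comes from limma. Day 3 effects were fitted on the 5 day 3 libraries alone. Slc16a1 was also compared by an exact permutation test (scipy 1.17.1). Same-numbered samples did not deviate together (Pearson r from -0.116 to 0.0623), so no block was used. The members and gene lists were chosen with earlier results of these data known, and lists were described by counts and medians, without a set test. Named were Slc16a1, Fosb, Lrig2, the 10 largest called increases and decreases, genes called from the 4 day 0 libraries alone, called list members and up to 4 more per list without overlap or with the highest level, genes within 1 Mb of Slc16a1, sex-linked genes, markers of other cells and the 10 genes with the largest spread within a genotype. The other called genes, the members of lists beyond that rule and the genes under the limit were named after their values were seen. Shared 31-base words and Slc16a1 exons come from GENCODE transcripts of GRCm38, promoter windows and positions from RefSeq (GRCm38.p6, 10970 of the 11001 tested genes matched); of the 29 called genes 14 were found in the GENCODE transcripts. Alternatives covered the pseudocount, filter, scaling, spread, block, limit and each library left out.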

Additional observations from a re-analysis of the deposited data

Results flagged for a closer look

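For 14 genes the genotype effect differed between the days in the test of the difference itself (limma, adjusted p under 0.05; 922 of all genes tested did so), given as the day 3 effect minus the day 0 effect on the log2 scale. It was negative for Gm40453 (-2.10), Gm40525 (-1.53), Jchain (-1.44), Gm43305 (-1.35), Slc16a1 (-1.06), Prg2 (-1.03), Hba-a1 (-0.91), Pcp4 (-0.81) and Eaf2 (-0.78). It was positive for LOC115490200 (0.72), Gm46911 (0.79), Dkkl1 (0.86), Fosb (0.89) and Srp54b (2.12). Fosb and Hba-a1 were at 0.3 FPKM or less in all 5 day 3 libraries, so that for them the value restates the day 0 difference. The 2 days differ in stimulation, and also in the Y-linked transcripts, which 1 of 4 day 0 libraries and all 5 day 3 libraries held; these cannot be told apart here.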

How the results depend on the processing

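The counts of called genes (25 higher, 4 lower) depended on the libraries and on how the spread was estimated. Counts higher and lower were 8 and 2 without a filter on low values, 0 and 2 with only the 4 day 0 libraries, 14 and 2 at a log2 limit of 1, and 38 and 12 with replicate 2 of each genotype alone, an alternative chosen after seeing the data. Without the variance trend 15 genes were higher, and at a minimum of 5 FPKM 1 was lower. Leaving out 1 library gave 21 to 62 higher (62 without Mb1Cre replicate 2, 61 without Mct1f/fMb1Cre replicate 2) and 5 to 61 lower (61 without Mb1Cre replicate 2, 11 without Mct1f/fMb1Cre replicate 2); a lone library was assumed to vary like the other groups. The cause was not tested. Of the 29 called genes 15, 25, 21 and 26 were still called without Mb1Cre replicate 1, Mb1Cre replicate 2, Mct1f/fMb1Cre replicate 1 and Mct1f/fMb1Cre replicate 2, 27 to 29 under 3 other scalings, and 24 and 26 at pseudocounts of 5 and 0.1; none changed direction in any of the 16 alternatives. Slc16a1, not called in any setting, ranged from -0.13 to 0.02 (0.0244 without Mb1Cre replicate 1, 0.000552 without Mct1f/fMb1Cre replicate 1) and was 0.0761 with replicate 2 alone; at a minimum of 5 FPKM it is not tested. Retnlg was -0.73 with replicate 2 alone. Taking the replicate number as a block gave 19 genes higher and 5 lower, kept 21 of the 29 calls, and reduced the genes whose effect differs between the days from 922 to 398; the numbers did not pair the samples. Fosb had an adjusted p of 0.0525 with the replicate block. Other scalings moved the median of all genes by at most 0.013. With no counts, low genes near 1 FPKM are the least certain.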

Other observations

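12 genes passed the adjusted p but not the limit of 0.5, and those named here were chosen after their values were seen. With the 4 day 0 libraries alone none of the 12 passed, with adjusted p from 0.133 (Slc1a5) to 0.612 (Zbtb32 and Neil3). Kifc1, a spindle motor, was at 3.14 and 3.09 FPKM in Mb1Cre and at 4.34 and 5.03 in Mct1f/fMb1Cre (log2 fold change 0.46, adjusted p = 0.0280). Ccnb2 (0.35), Stmn1 (0.32), Top2a (0.31), Cenpa (0.26) and Neil3 (0.38) were higher as well. On day 3 Cenpa was lower (-0.20, adjusted p = 0.0178), and the other 5 did not pass the test, with values from -0.18 (Kifc1) to 0.11 (Stmn1). The glutamine carrier gene Slc1a5 was at 81.9 and 85.8 against 109 and 114 FPKM (0.41, adjusted p = 0.00570), higher without overlap. Strap, which encodes a partner of TGF-beta receptors, was at 34.9 and 35.3 against 28.3 and 27.7 FPKM (-0.32, adjusted p = 0.0138) and was lower on day 3 as well (-0.44). Tuba1a was lower (-0.33), and Tmem147 (0.31) and Slfn5 (0.38) were higher.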
